A study of Mus musculus with 4 samples.

Results

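The LIF receptor and STAT3 pathway was followed through 10 genes of the 19840 in the table, found by their symbols: the receptor chains Lifr and Il6st, the kinases Jak1 and Jak2, the factor Stat3, its feedback inhibitor Socs3, and the targets and partners Pim1, Pim3, Gbx2 and Tcl1. Total RNA was sequenced, after ribosomal RNA was removed, from mouse embryonic stem cells held in the naive state in 2i/LIF, where 2i stands for a pair of kinase inhibitors and LIF for leukaemia inhibitory factor. All cells carried a lentivirus and were selected with puromycin for 2 days, the virus coding either for the shLincenc1 hairpin against the long noncoding RNA Lncenc1 or for the shCtrl hairpin, with 2 libraries per group. The growth protocol names the lines E14TG2a and R1 and 2 hairpins per target, and the sources used here do not tie a line or a hairpin to a library. Nor do they say that replicates were separate cultures, so p-values measure a spread that may be technical.

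The table does not say which group is the numerator of its fold change, so the groups are named by their Lncenc1 level. Lncenc1 had 2126 and 2121 normalized reads in libraries L1 and L2 of the Lncenc1-low group, against 6400 and 7250 in H1 and H2 of the Lncenc1-high group. The Lncenc1-low group is that of shLincenc1 provided that this hairpin reduced Lncenc1, which no label ties to the libraries. Every log2 fold change below is Lncenc1-high over Lncenc1-low as deposited, so that a positive value means a lower level in the Lncenc1-low group. Reads per library were worked back from the deposited means and summed to 10939487 in L1, 10413550 in L2, 26005531 in H1 and 10772083 in H2. Normalized reads are these counts divided by size factors.

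LIF binds the receptor chain LIFR, which pairs with gp130, the product of Il6st and the signalling chain shared by the interleukin 6 family. The bound JAK kinases phosphorylate the receptor and STAT3, which enters the nucleus and binds DNA. In mouse embryonic stem cells this route sustains self-renewal through target genes that include Socs3, whose product blocks the kinases and so closes a feedback loop.

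The 250 bases before a RefSeq start of 3 genes are shown, for the 2 members called different between the groups, Il6st and Pim1, and for Socs3, the member that differed most between libraries of 1 group. They are RefSeq sequences of the build GRCm38.p6, read 5′ to 3′ on the strand of the gene, while the submitters' processing notes name mm9. Capitals mark TTCNNNGAA, the palindromic core of STAT binding sites, which reads the same on both strands.
Il6st, chr13:112463820-112464069, plus strand: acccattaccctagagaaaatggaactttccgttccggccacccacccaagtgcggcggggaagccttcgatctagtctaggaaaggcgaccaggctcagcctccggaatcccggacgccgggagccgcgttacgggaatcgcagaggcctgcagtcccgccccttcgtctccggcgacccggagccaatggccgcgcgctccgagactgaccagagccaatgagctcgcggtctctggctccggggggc
Pim1, chr17:29490535-29490784, plus strand: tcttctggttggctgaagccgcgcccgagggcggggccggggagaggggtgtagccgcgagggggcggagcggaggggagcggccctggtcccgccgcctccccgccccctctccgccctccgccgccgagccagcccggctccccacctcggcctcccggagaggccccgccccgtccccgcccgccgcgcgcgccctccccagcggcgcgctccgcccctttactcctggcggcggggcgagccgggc
Socs3, chr11:117969367-117969616, minus strand: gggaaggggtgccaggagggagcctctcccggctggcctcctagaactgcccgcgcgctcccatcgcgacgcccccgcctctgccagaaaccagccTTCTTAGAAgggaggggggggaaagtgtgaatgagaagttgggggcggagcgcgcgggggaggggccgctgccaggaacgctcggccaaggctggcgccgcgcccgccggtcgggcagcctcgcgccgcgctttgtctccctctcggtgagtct
RefSeq gives Pim1 another start, further along the gene, whose window is not printed. All 10 genes had an entry, with 12 windows between them, each running from 250 bases before to 50 after a start. The motif was found in 1 of the 12, where TTCTTAGAA begins 154 bases before the Socs3 start, and in 8.30% of all 32851 promoter windows. The stricter form TTCCNGGAA, which is contained in the first, was in 0 of the 12 and in 1.15% of all windows. A match is a run of letters and was not tested as a binding site.

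Of the 10 members 2 were called at a DESeq2 adjusted p under 0.05 in the authors' deposited table, Il6st and Pim1, both lower in the Lncenc1-low group. That rule called 1.53% of the 14070 genes tested, 0.505% as lower in the Lncenc1-low group and 1.02% as higher. A fold change above 0 was found for 9 of the 10, and the median of the 10 log2 fold changes was 0.59, against -0.01 over all tested genes. The members were chosen with earlier results of these data known, so this contrast is a description only. In 6 members both Lncenc1-low libraries lay below both Lncenc1-high libraries, an order held by 20.6% of genes, in 0 the reverse (20.7% of genes), and in 4 the groups overlapped. In these bulk samples fewer cells of a type and less RNA per cell cannot be told apart. Limma voom on the recovered counts called 0 of the 10, and 0.0427% of all genes. At an unadjusted p under 0.05 by voom were 4 of the 10, against 10.2% of all genes. In negative binomial refits, 3 members were called without L1 (1.38% of all genes), and 0 without L2 (0.321%), without H1 (0.394%) and without H2 (0.549%). With library totals, summed over the recovered genes, in place of size factors 1 was called (1.62% of all genes). With adjustment over every gene with a p-value 1 was called (0.897%).

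**Figure D1:**
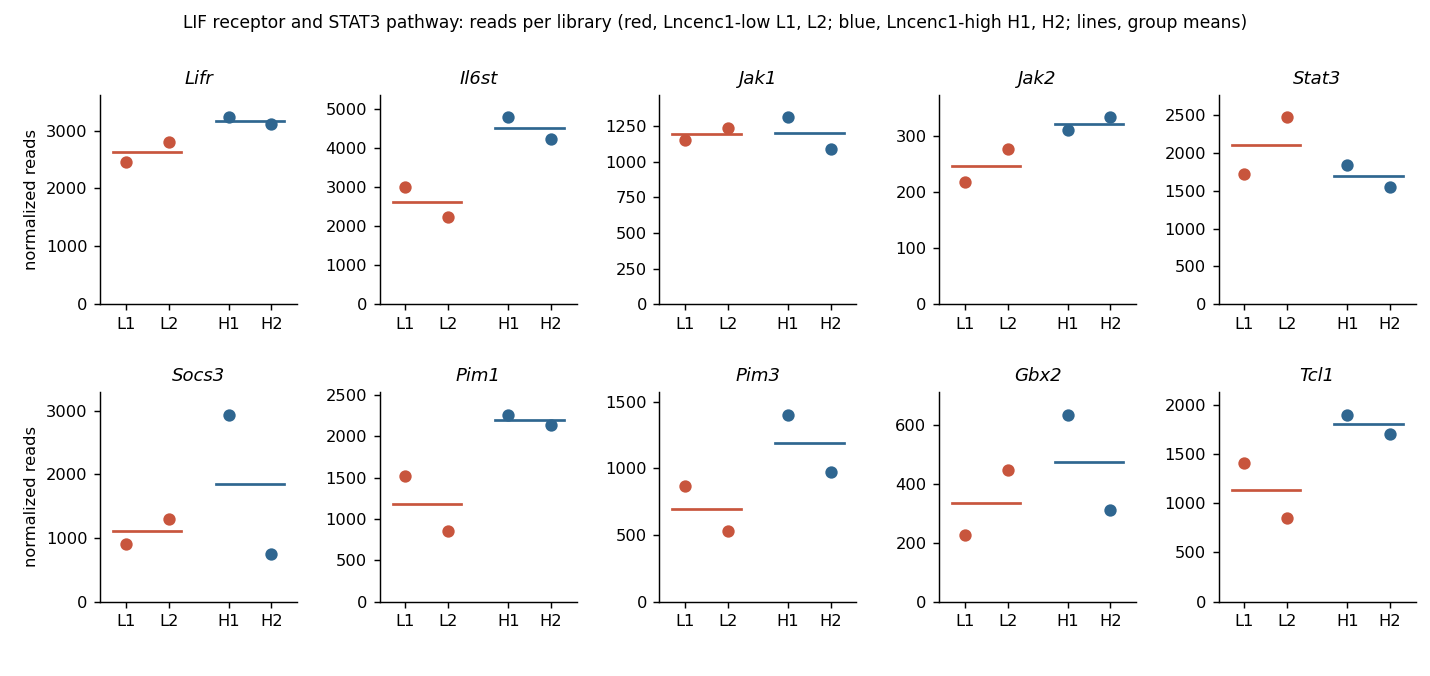
Normalized reads (y axis, from 0, 1 scale per gene) of the 10 members in each library, with Lncenc1-low libraries L1 and L2 in red, Lncenc1-high libraries H1 and H2 in blue and group means as lines. Il6st and Pim1 lie lower in both red points than in both blue points, while Socs3 has 1 high point, H1, at 2936.

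Of the receptor chains, Il6st was called and Lifr was not. Il6st had 2996 and 2228 normalized reads in L1 and L2, against 4782 and 4233 in H1 and H2. The groups did not overlap, and L2 was the lowest library. The authors' deposited table gives Il6st (ENSMUSG00000021756.11) a log2 fold change of 0.79 ± 0.21 (SE), which puts the Lncenc1-low group at 57.9% of the Lncenc1-high group (DESeq2 adjusted p = 0.0201). Lifr, the chain that gives the receptor its specificity for LIF, had 2463 and 2796 normalized reads in L1 and L2, against 3233 and 3112 in H1 and H2. These groups did not overlap either, but the difference was small. Lifr stood at 0.27 ± 0.19 (log2 fold change ± SE) in the authors' deposited table, with a 95% interval from -0.10 to 0.65, and it did not pass (DESeq2 adjusted p = 0.822). The ratio of Lifr to Il6st reads was 0.822 in L1 and 1.25 in L2, against 0.676 in H1 and 0.735 in H2. Whether the fold changes of the 2 chains differ was not tested. The Il6st call was kept without L1 (adjusted p = 0.0136) and lost without L2, where the log2 fold change was 0.59 ± 0.26 (SE, adjusted p = 0.656), without H1 (0.70, adjusted p = 0.37) and without H2 (0.87, adjusted p = 0.093).

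Jak1, Jak2 and Stat3 held 0 calls, against 1.53% of all tested genes, a share at which so short a list is not set apart. Jak1, the main kinase bound to gp130, had 1156 and 1238 normalized reads in L1 and L2, against 1314 and 1090 in H1 and H2, and the groups overlapped. Its log2 fold change in the authors' deposited table was 0.01 ± 0.22 (SE), with a 95% interval from -0.42 to 0.44 (DESeq2 adjusted p = 0.999). Its sign turned with library totals in place of size factors (-0.02). Jak2, another kinase of the same receptors, had 218 and 277 normalized reads in L1 and L2, against 311 and 334 in H1 and H2. The groups did not overlap for Jak2, and the authors' deposited table puts it at 0.38 ± 0.31 (log2 fold change ± SE, 95% interval from -0.23 to 0.99, DESeq2 adjusted p = 0.90). Stat3 was the 1 member with a negative fold change. It had 1725 and 2477 normalized reads in L1 and L2, against 1847 and 1553 in H1 and H2. L2 alone stood above the other libraries. The authors' deposited table gives Stat3 a log2 fold change of -0.30 ± 0.23 (SE), with a 95% interval from -0.76 to 0.15 (DESeq2 adjusted p = 0.864), and without L2 the refitted value was -0.02.

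Socs3 was read very unevenly within the Lncenc1-high group. It had 900 and 1304 normalized reads in L1 and L2, against 2936 in H1 and 749 in H2. H1 was thus 3.92 times H2, and both Lncenc1-low libraries lay between them. Of 9719 genes with a mean of at least 100, 99.9% had a smaller ratio between H1 and H2. In the authors' deposited table Socs3 stood at 0.74 ± 0.90 (log2 fold change ± SE), with a 95% interval from -1.01 to 2.50 (DESeq2 adjusted p = 0.981). Without H1 it was -0.56 ± 1.10 (SE, adjusted p = 0.999). A difference in Socs3 between the groups was not detectable with these libraries.

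The PIM kinases, serine/threonine kinases that promote survival and growth and are targets of STAT3, include Pim1, the member with the largest fold change. Pim1 had 1521 and 849 normalized reads in L1 and L2, against 2262 and 2131 in H1 and H2. The Lncenc1-high libraries were close together and the Lncenc1-low ones far apart, with no overlap. The authors' deposited table gives Pim1 (ENSMUSG00000024014.7) a log2 fold change of 0.89 ± 0.26 (SE), at 53.9% in the Lncenc1-low group of the Lncenc1-high level, and a DESeq2 adjusted p of 0.0488. That call lay close to the threshold. It was lost with library totals (adjusted p = 0.0558), with adjustment over every gene with a p-value (adjusted p = 0.0688), without L2 (log2 fold change 0.53, adjusted p = 1), without H1 (0.85, adjusted p = 0.42) and without H2 (0.93, adjusted p = 0.259), and was kept without L1 (1.37, adjusted p = 0.00567).

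Exons of Pim1 overlap those of Gm26885, an antisense gene on the other strand. Gm26885 had 2.46 and 3.71 normalized reads in L1 and L2, from 2 and 3 reads, against 26.7 and 21.3 in H1 and H2, from 52 and 17 reads. Its log2 fold change in the authors' deposited table was 2.96 ± 1.27 (SE, DESeq2 adjusted p = 0.377). The strand setting of the counting was not stated in the labels or the table, so reads of the pair cannot be told apart where they overlap. The counted Gm26885 level was far below that of Pim1 in every library, but reads in the shared exons may be missing from it. The part of antisense reads in the Pim1 difference was not tested. Exons of Jak1, Stat3 and Gbx2 also overlap exons on the other strand, those of Raver2, Stat5a and D130058E05Rik in that order. The same limit holds for their counts, and its part there was not tested.

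Pim3, the related kinase, followed the same order of libraries in the Lncenc1-low group. It had 863 and 529 normalized reads in L1 and L2, against 1402 and 970 in H1 and H2, with no overlap. Pim3 stood at 0.77 ± 0.29 (log2 fold change ± SE) in the authors' deposited table, with a 95% interval from 0.21 to 1.33, and it did not pass over all genes (p = 0.00681, DESeq2 adjusted p = 0.205). Pim2, the third kinase of the family, did not share this order. It had 97.4 and 253 normalized reads in L1 and L2, against 118 and 115 in H1 and H2, and the authors' deposited table puts it at -0.59 ± 0.48 (log2 fold change ± SE, DESeq2 adjusted p = 0.896). Without L2 the Pim2 value was 0.26.

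Gbx2 and Tcl1 differed in how evenly they were read. Gbx2, a homeobox factor that acts downstream of STAT3 in embryonic stem cells, had 226 and 445 normalized reads in L1 and L2, against 634 and 310 in H1 and H2. Libraries of the same group were further apart than the group means of 335 ± 155 (Lncenc1-low) and 472 ± 229 (Lncenc1-high, SD, n = 2 each), at 1.97-fold within the Lncenc1-low group and 2.05-fold within the Lncenc1-high group. In the authors' deposited table Gbx2 stood at 0.50 ± 0.39 (log2 fold change ± SE, 95% interval from -0.26 to 1.26, DESeq2 adjusted p = 0.872), and without H1 it was -0.11. Tcl1, a coactivator of the kinase AKT that is abundant in naive cells, had 1412 and 847 normalized reads in L1 and L2, against 1900 and 1705 in H1 and H2. Its groups did not overlap and L2 was the lowest library. Tcl1 stood at 0.68 ± 0.26 (log2 fold change ± SE) in the authors' deposited table, with a 95% interval from 0.17 to 1.18, and it did not pass (p = 0.00861, DESeq2 adjusted p = 0.234). Without L1 Tcl1 passed, at 1.09 ± 0.32 (SE, adjusted p = 0.044), and without L2 the value was 0.35 (adjusted p = 1).

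**Figure D2:**
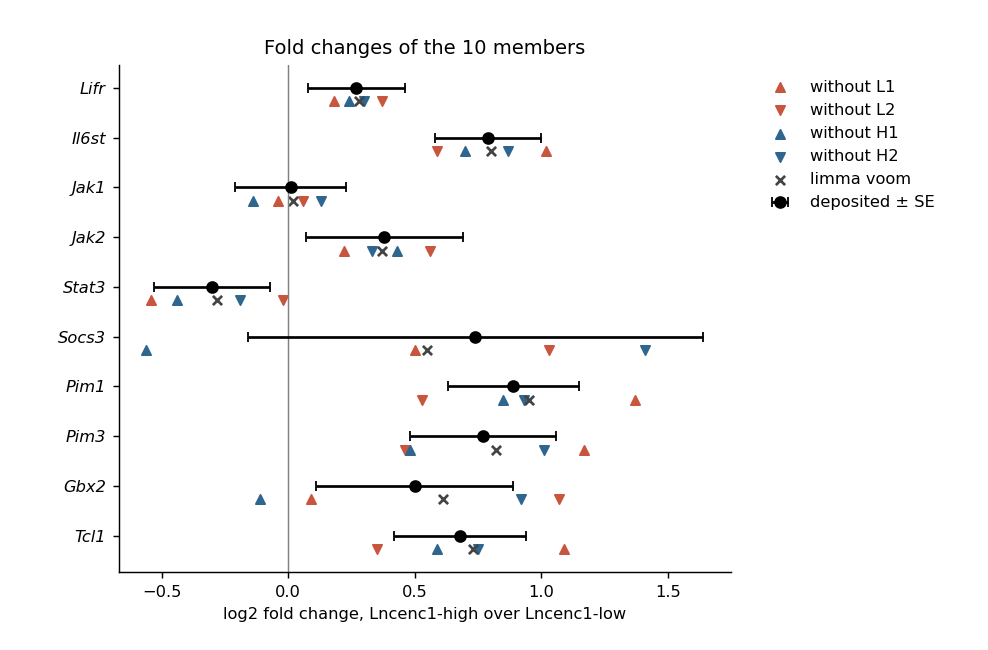
Log2 fold change, Lncenc1-high over Lncenc1-low (x axis), of each member: black points with bars are the deposited values ± SE, triangles are refits without 1 library and crosses are limma voom. For Il6st, Pim1, Pim3 and Tcl1 the value without L2 lies left of the deposited one and the value without L1 right of it, and the value of Socs3 without H1 is -0.56.

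The lowest library was L2 in 4 members, Il6st, Pim1, Pim3 and Tcl1, a share near the 31.1% of all genes, L1 in 3 and H2 in 3. L2 was the highest library in 1, Stat3. H1 was the highest library in 8 of the 10, against 19.9% of all genes. Between L1 and L2, Pim1, Pim3 and Tcl1 differed 1.79-, 1.63- and 1.67-fold, and Lifr and Jak1 differed 1.13- and 1.07-fold. H1 was also sequenced to more than double the reads of any other library, and the part of depth in these patterns was not tested.

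**Figure D3:**
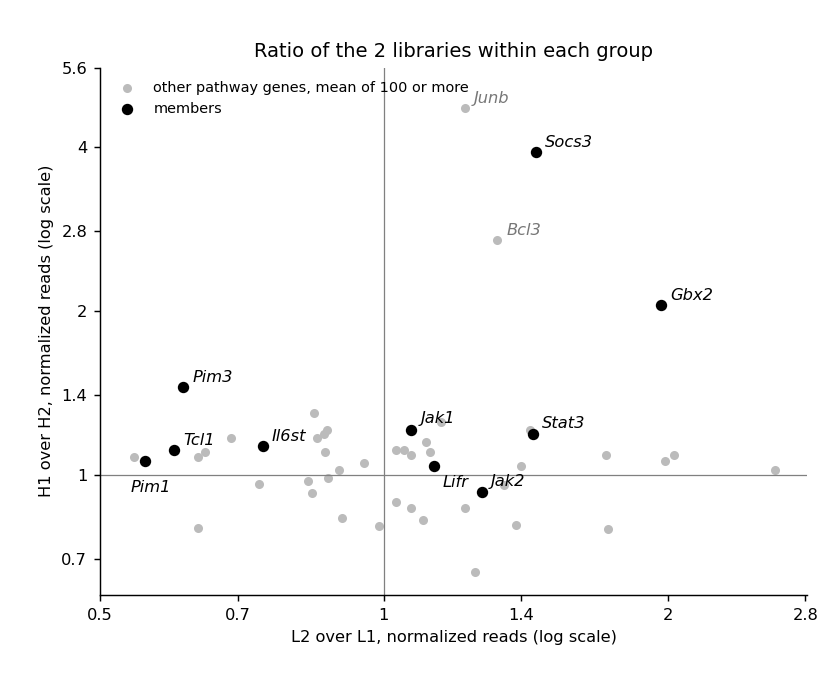
Ratio of L2 to L1 (x axis, log scale) against the ratio of H1 to H2 (y axis, log scale) in normalized reads, with the members in black and other tested pathway genes with a mean of at least 100 in grey. Socs3 lies high at an H1 to H2 ratio of 3.92, while Pim1, Pim3 and Tcl1 lie left, at L2 to L1 ratios of 0.558, 0.613 and 0.599.

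Per kilobase of summed exon, Tcl1 had the highest level of the members and Jak2 the lowest. Tcl1 stood at 612 ± 217 normalized reads per kb (SD, n = 2) in the Lncenc1-low group and at 977 ± 75.0 (SD, n = 2) in the Lncenc1-high group. After it came, by their means over the 4 libraries, Socs3 at 509, Pim1 at 503, Pim3 at 388, Il6st at 321, Lifr at 269, Stat3 at 199, Gbx2 at 185 and Jak1 at 166 normalized reads per kb. Neighbours in this order overlapped in range over the 4 libraries for every pair except Jak1 and Jak2. Jak2 stood at 49.2 ± 8.25 normalized reads per kb (SD, n = 2) in the Lncenc1-low group and at 64.1 ± 3.18 (SD, n = 2) in the Lncenc1-high group. The levels and their order depend on the transcript taken. Per kb of the longest transcript Stat3 would stand at 315, above Lifr at 300, and Tcl1 at 1049.

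**Figure D4:**
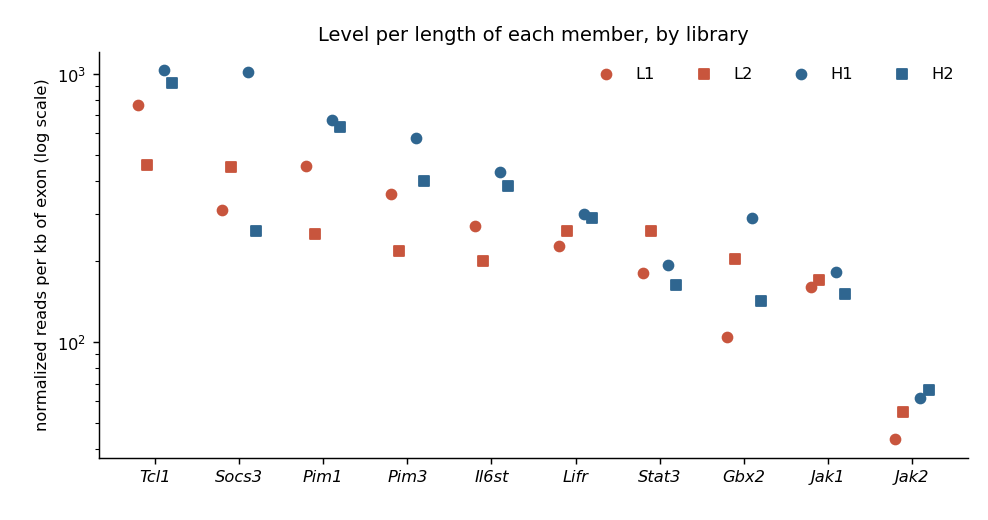
Normalized reads per kb of exon (y axis, log scale) of each member in L1 and L2 (Lncenc1-low, red) and H1 and H2 (Lncenc1-high, blue), from the highest mean to the lowest. Jak2 lies below all other members in every library, at 43.4 to 66.3.

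Around the members, 64 further genes of the pathway were in the table, and 55 of them were tested. DESeq2 in the authors' deposited table called 0 of the 55 (1.53% of all tested genes) and voom called 0 (0.0427%). At an unadjusted p under 0.05 were 5 of the 55 by DESeq2, against 8.82% of all tested genes, and 6 by voom, against 10.2%. Their median log2 fold change was -0.02. The Lncenc1-low libraries lay below the Lncenc1-high ones in 15 of the 55 (20.6% of all genes) and above them in 14 (20.7%).

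Among ligands and receptors 0 of 7 tested genes were called, against 1.53% of all tested genes. At that share 0 calls in a list as short as those by role does not set a role apart. Lif, the ligand itself, had 155 and 194 normalized reads in L1 and L2, against 64.2 and 96.6 in H1 and H2. The groups did not overlap, with Lif on the side opposite to Il6st. For Lif the authors' deposited table gives -1.13 ± 0.43 (log2 fold change ± SE), which did not pass (p = 0.00886, DESeq2 adjusted p = 0.237). This is the cells' own transcript, while LIF was also added to the medium. Il6ra, the interleukin 6 receptor, had 281 and 239 normalized reads in L1 and L2, against 217 and 186 in H1 and H2 (DESeq2 adjusted p = 0.937 in the authors' deposited table). Osmr, the oncostatin M receptor, had 8.63 and 12.4 in L1 and L2, against 28.2 and 18.8 in H1 and H2 (DESeq2 adjusted p = 0.934 in the authors' deposited table). Cntfr, the receptor of ciliary neurotrophic factor, had 0 and 1 reads in L1 and L2, against 7 and 6 in H1 and H2, and has no adjusted p.

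Of the other JAK kinases and STAT factors 0 of 8 were called (1.53% of all tested genes). Jak3 had 1012 and 874 normalized reads in L1 and L2, against 700 and 586 in H1 and H2, with no overlap. Jak3 acts with receptors of the interleukin 2 family in lymphocytes. The authors' deposited table puts Jak3 at -0.55 ± 0.24 (log2 fold change ± SE, p = 0.0205, DESeq2 adjusted p = 0.382). Tyk2, the fourth kinase, had 564 and 691 normalized reads in L1 and L2, against 537 and 617 in H1 and H2. Stat5a, whose exons overlap those of Stat3 on the other strand, had a value of -0.58 ± 0.51 and Stat5b one of 0.61 ± 0.37 on the same scale of the authors' deposited table, both short of the threshold.

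Of 14 tested negative regulators other than Socs3, 0 were called (1.53% of all tested genes). Socs5 had 69.0 and 87.7 normalized reads in L1 and L2, against 39.0 and 16.3 in H1 and H2, for which the authors' deposited table gives -1.47 ± 0.66 (log2 fold change ± SE, p = 0.0254, DESeq2 adjusted p = 0.427). Socs2, which restrains growth hormone signalling, had 1234 and 1039 normalized reads in L1 and L2, against 1054 and 813 in H1 and H2. Socs1 was low, with 33.3 and 24.7 normalized reads in L1 and L2, against 19.0 and 18.8 in H1 and H2. Neither Socs1 nor Socs2 passed.

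Of 14 tested known targets of LIF and STAT3 beside the members, 0 were called (1.53% of all tested genes). Myc, the growth-promoting transcription factor, had 24.6 and 27.2 normalized reads in L1 and L2, against 85.7 and 67.7 in H1 and H2. The libraries were even within each group and did not overlap. For Myc the authors' deposited table gives 1.57 ± 0.63 (log2 fold change ± SE), which did not pass (p = 0.0125, DESeq2 adjusted p = 0.288). Klf4 and Tfcp2l1, naive pluripotency factors that STAT3 activates, stood at 0.31 ± 0.20 and 0.13 ± 0.18 (log2 fold change ± SE) in the authors' deposited table, short of the threshold. Klf4 had 1309 and 1247 normalized reads in L1 and L2, against 1620 and 1539 in H1 and H2. Tfcp2l1 had 17223 and 18453 in L1 and L2, against 20360 and 18740 in H1 and H2.

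H1 was the highest library in 7 of the 14 targets, against 19.9% of all genes, and the ratio of H1 to H2 over the 14 had a median of 1.19 and ran from 0.799 (Rhox5) to 4.72 (Junb). Among the 4 targets with the largest ratios, singled out after their values were seen, H1 was the highest library in Junb, Zfp36 and Bcl3, and L1 in Pramel7, whose ratio was 4.09. Junb, a subunit of the AP-1 factor, had 137 and 167 normalized reads in L1 and L2, against 332 in H1 and 70.3 in H2. Bcl3, an atypical inhibitor of NF-kappa-B, had 165 and 218 in L1 and L2, against 257 in H1 and 95.3 in H2, so that H2 stood further from the other libraries than H1 did. Zfp36, an RNA-binding protein that destabilises messages, had 18.5 and 14.8 in L1 and L2, against 45.7 in H1 and 13.8 in H2. H1 was 2.70 times H2 for Bcl3 and 3.31 times for Zfp36. In none of Junb, Bcl3 and Zfp36 did the authors' deposited table give an adjusted p under 0.05.

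**Figure D5:**
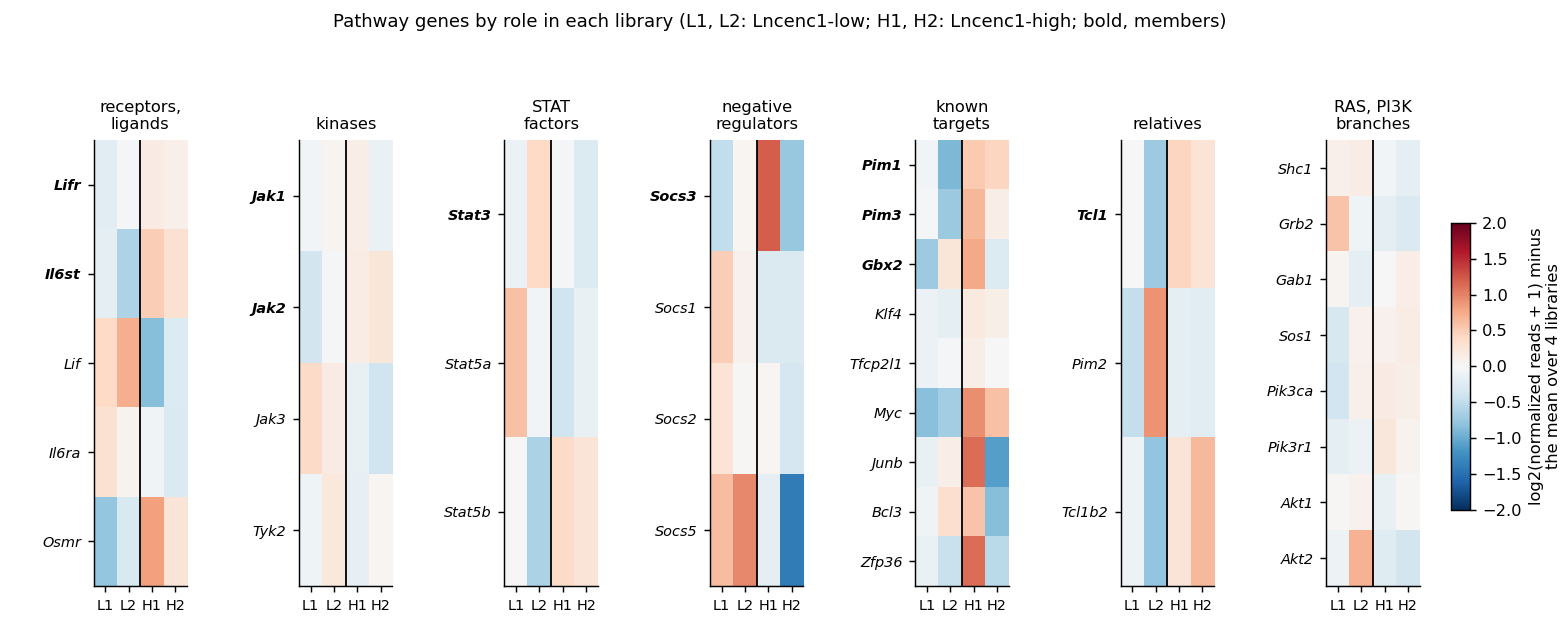
Log2(normalized reads + 1) minus its mean over the 4 libraries (colour, red higher and blue lower) for the members in bold and the tested pathway genes described in the text, by role. Columns are L1 and L2 (Lncenc1-low) and H1 and H2 (Lncenc1-high), and Socs3, Junb and Zfp36 are strongly red in H1 and blue in H2.

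Gbx1 and the Tcl1b genes were near 0, given here as reads that are not normalized, with H1 the deepest library. Gbx1 had 1 and 0 reads in L1 and L2, against 17 and 5 in H1 and H2. Of the Tcl1b genes, which neighbour Tcl1, Tcl1b2 had 7 and 4 reads in L1 and L2, against 22 and 12 in H1 and H2. Tcl1b1 had 0 and 0 against 4 and 5, Tcl1b3 had 0 and 0 against 3 and 0, and Tcl1b5 had 0 and 0 against 0 and 3, in the same order of libraries. Tcl1b4 was not in the table. Mtcp1, another gene of the TCL1 family, had 117 and 105 normalized reads in L1 and L2, against 126 and 123 in H1 and H2 (DESeq2 adjusted p = 0.999 in the authors' deposited table).

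By the distance between centred log2(normalized reads + 1) profiles over the 4 libraries, the 3 genes most like Il6st among 9719 included Bbs10 at 0.0452 and Zfp819 at 0.0580. Those most like Pim1 were Igsf3 at 0.0731, Ly75, an endocytic receptor, at 0.0938 and Rfx3, a factor of ciliary genes, at 0.124. Of the genes named here, Ly75 was called in the authors' deposited table, at a log2 fold change of 0.90 (DESeq2 adjusted p = 0.039), with 5446 and 2861 normalized reads in L1 and L2, against 7736 and 7774 in H1 and H2. A profile of 4 libraries is short, and likeness in it is a description only.

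The cells carried naive markers in every library. The naive list of 11 genes summed to 63702 and 59470 normalized reads in L1 and L2, against 74484 and 70421 in H1 and H2. It had 0 genes at 0. The list includes Nanog, Klf4 and Esrrb, and also Pou5f1 and Sox2, which are not specific to the naive state. Markers of primed epiblast summed to 3537 and 4732 against 3087 and 3095 (6 genes), of primitive endoderm to 87.5 and 76.6 against 64.2 and 69.0 (6 genes), of trophoblast to 889 and 777 against 681 and 460 (5 genes), and of fibroblasts to 392 and 308 against 229 and 194 (6 genes), in the same order of libraries. Single genes made up most of 3 sums: Dnmt3b of the primed sum, Tfap2c of the trophoblast sum and Fbn1 of the fibroblast sum. Without Dnmt3b the primed sum was 1390 and 648 in L1 and L2, against 1338 and 1046 in H1 and H2. Without Tfap2c the trophoblast sum was 78.9 and 108 in L1 and L2, against 86.2 and 162 in H1 and H2. Without Fbn1 the fibroblast sum was 67.8 and 133 in L1 and L2, against 89.3 and 84.1 in H1 and H2, and in all 3 the groups then overlapped. Single markers, chosen after their values were seen, ran against their sums: the trophoblast factor Cdx2 had 2.46 and 19.8 normalized reads in L1 and L2, against 40 and 87.8 in H1 and H2, and the naive marker Dppa3 had 148 and 397 in L1 and L2, against 141 and 135 in H1 and H2. Markers at 0 in 1 or more libraries were Fgf5, Gata6, Sox7, Gata3 and Col3a1. DESeq2 called 0 of the 27 tested markers in the authors' deposited table (1.53% of all genes), with 8 at an unadjusted p under 0.05 (8.82%). Voom called 0 (0.0427% of all genes), with 7 at an unadjusted p under 0.05 (10.2%). The 5 full sums did not overlap between the groups, the naive sum lower and the others higher in the Lncenc1-low group. Their part in the results above was not tested.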

How the data were processed

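Strand-specific libraries of total RNA without ribosomal RNA, 2 per group, were sequenced, per the labels' protocols. Tools named in the submitters' processing notes are TopHat2, HTSeq and DESeq2 1.8.2, with mm9 as the build. The annotation and the strand setting of the counting were not stated. Values of single libraries are absent from the deposited table. Per the file headers it has, for each gene, a mean normalized count (a signal), a log2 fold change with its error (log2), a Wald statistic (a score), and a p-value before and after adjustment. These deposited values are the authors' own and are the main result. Adjusted p-values exist for 14070 of 19840 genes. Symbols were matched by Ensembl identifier for 19707 genes.

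Each deposited mean could be turned back into reads, since it is a sum of 4 whole counts times fixed steps. The steps recur among low genes, and the sign of the fold change told their group. Whole-number solutions were accepted where refitting gave the deposited fold change to 0.001 (0.00001, and 10 times better than the next, where there were several), or, below a mean of 5 or with a group at 0, where there was 1 solution. This gave 19802 genes (99.8%), and 13899 of 14033 tested genes refitted the deposited fold change within 0.00001. The 38 others, 25 of them with means over 30000, hold 14.2% of the summed means. The steps were tested on simulated data, built from deposited means under 30000 and the size factors worked back here. Such data cannot show that the recovered counts are those the authors had. Size factors were 0.811 for L1, 0.809 for L2, 1.95 for H1 and 0.797 for H2, and 3 reads are 3.70, 3.71, 1.54 and 3.76 normalized reads there. Counts cover counting error only.

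Alternatives were negative binomial Wald tests with dispersions taken from the deposited standard errors (leaving out each library, where the lone one of a group is taken to vary as the rest do, and with library totals), limma voom (limma 3.58.1, R 4.3.3) on the size factors worked back from the deposited means, and Benjamini-Hochberg adjustment over all genes. Library totals are sums over the recovered genes, without the 38 others and their 14.2% of the summed means. Intervals of 95% are 1.96 standard errors. Exon lengths and overlaps come from GENCODE M21, of another build, and promoters from RefSeq. Named genes were the members, fixed relatives, other pathway genes with an unadjusted p under 0.05, and, for the 2 members with the smallest p, the 3 nearest profiles among genes with a mean of at least 100. A few genes that the rule names are not reported here. Members and lists were chosen with earlier results of these data known.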

Additional observations from a re-analysis of the deposited data

How the results depend on the processing

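The count of called members, 2 in the authors' deposited table, was 1 with library totals in place of size factors, 1 with adjustment over every gene with a p-value, 0 with voom, and from 0 (without L2, H1 or H2) to 3 (without L1) in the refits without 1 library. The share of all genes called was 1.53% in the authors' deposited table, 1.62% with library totals, 0.897% with that adjustment and 0.0427% with voom. It was also below 1.53% in each refit without 1 library. The fall to 0 called members with voom and without L2, H1 or H2 thus came with fewer calls over all genes. The other pathway genes held 0 calls in each of these settings. At such shares of all genes, 0 calls does not set a list of that length apart. The log2 fold change of Il6st was 0.80 and no longer called with voom (adjusted p = 0.22) and ran from 0.59 to 1.02 without 1 library. That of Pim1 was no longer called with voom (0.95, adjusted p = 0.29), library totals (0.87) or adjustment over every gene (0.89), and ran from 0.53 to 1.37 without 1 library. Without 1 library, Tcl1 ran from 0.35 to 1.09, called without L1 alone, and the sign turned within the ranges of Jak1 (-0.14 to 0.13), Socs3 (-0.56 to 1.41) and Gbx2 (-0.11 to 1.07). Library totals turned Jak1 (-0.02), and the median shift in log2 fold change over the refitted genes was -0.03. Among the 17 other pathway genes refitted in this way, Pim2 (-1.12 to 0.26) and Tyk2 (-0.26 to 0.03) turned within their ranges, both without L2. The cause of these shifts was not tested. In the fits without 1 library fewer libraries carry the test. Levels per kb of the longest transcript in place of summed exons moved to 300 for Lifr, 410 for Il6st, 245 for Jak1, 315 for Stat3, 627 for Pim1 and 1049 for Tcl1. Socs3 went to 577 and Gbx2 to 189. From the highest, the order was then Tcl1, Pim1, Socs3, Il6st, Pim3, Stat3, Lifr, Jak1, Gbx2 and Jak2. The planned edgeR test on the recovered counts was not run, and limma voom stands as the count-based alternative. No paired analysis was possible because the table has no column per library that carries a replicate number. Low depth limits Gbx1, Cntfr and the Tcl1b genes, which had at most 22 reads in any library.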

Other observations

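The branches that leave the LIF receptor toward RAS and PI3K held 9 tested genes. Voom called 0 of them (0.0427% of all genes), and DESeq2 in the authors' deposited table called 0 (1.53%). At an unadjusted p under 0.05 by DESeq2 was 1 of the 9, against 8.82% of all tested genes. That gene was Akt2, a kinase of insulin and survival signalling, with 1744 and 3007 normalized reads in L1 and L2, against 1581 and 1451 in H1 and H2. For Akt2 the authors' deposited table gives -0.65 ± 0.26 (log2 fold change ± SE, p = 0.0116, DESeq2 adjusted p = 0.278), and L2 stood far above the other libraries. Grb2, the adaptor that links receptors to RAS, had 705 and 449 normalized reads in L1 and L2, against 419 and 388 in H1 and H2, with L1 the highest. Shc1, Gab1, Sos1, Pik3ca, Pik3r1 and Akt1 lay between -0.24 and 0.30 on the log2 scale of the authors' deposited table.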
